A study of Mus musculus with 20 samples.

Results

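The genes described here are those of homologous recombination, the Fanconi anemia pathway, mismatch repair and the checkpoint kinases that act with them. The list named 35 genes by pathway and not by their values on these arrays, and 34 of them had a probeset annotated to that gene alone, out of 18193 genes so annotated. *Xrcc2* had none and is not analysed here. Where a gene had several probesets, the one brightest on average across the 20 arrays was taken. All values are log2 values as the authors made them.

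Homologous recombination repairs a broken chromosome by copying the sister DNA molecule. The ends are cut back to single strands, and the BRCA proteins and the strand exchange proteins then guide these strands to the matching sequence. The Fanconi proteins open crosslinks between DNA strands and hand the resulting break to recombination, mismatch repair removes bases that replication paired wrongly, and the ATM and ATR kinases with CHK2 and CHK1 hold the cell cycle while repair goes on. Most of this machinery works in cells that copy their DNA, and many of its genes, though not all, are transcribed more in dividing cells. In normal epidermis these are the cells of the basal layer and the hair follicle.

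The arrays (Affymetrix MOE430 2.0) measured total RNA of 5 samples of normal skin and 15 skin carcinomas, all of FVB mice. The skin came from wild type mice of 2 months, while no age is labelled for the carcinomas. Age and tumor cannot be told apart in any comparison with skin. In 7 tumors (Trp53ΔEC) both floxed *Trp53* alleles had been deleted by Cre recombinase, and in 8 tumors (RbΔEC; Trp53ΔEC) the floxed *Rb1* alleles as well. Cre was driven by the keratin 14 promoter, so the deletion is aimed at basal keratinocytes and at other stratified epithelia, while stroma and blood cells of the tumor keep the genes. By histology 6 tumors were poorly differentiated (2 Trp53ΔEC and 4 RbΔEC; Trp53ΔEC), 5 were undifferentiated or spindle cell carcinomas (2 and 3) and 4 were mixed (3 and 1). Whether each carcinoma was taken from its own mouse is not labelled, and the p-values therefore reflect no more than the scatter among these samples.

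Array medians lay between 5.59 and 5.63 in skin and between 5.65 and 5.75 in the tumors. The *Rb1* probeset ran from 8.95 to 9.26 in skin, from 7.85 to 8.84 in Trp53ΔEC tumors and from 6.55 to 8.14 in RbΔEC; Trp53ΔEC tumors, so the genotypes overlapped. Which part of the transcript that probeset reads relative to the deleted exons was not checked, and *Trp53* is not analysed here. Keratinocyte markers (9 measured) had a mean log2 value of 11.88 to 12.11 in skin, 11.57 to 12.34 in poorly differentiated tumors and 5.61 to 8.44 in undifferentiated and spindle tumors, which their labels also call squamous cell carcinomas.

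The first comparison asks how the repair genes differed between the carcinomas and normal skin. Of the 34 genes, 28 rose in the 15 tumors, none fell, and 6 did not pass the test (limma, adjusted p under 0.05 over all genes). None was lower at an unadjusted p under 0.05 either. Over all 18193 genes, 17.7% were called higher and 18% lower. The median change of the 34 genes was 1.17 on the log2 scale against 0.02 over all genes, and 33 of 34 changes were above 0 against 51.5% of all genes. In 21 of the 34 every tumor lay above every skin sample, which held for 6.9% of all genes. The largest rises were those of *Chek1*, *Rad51ap1*, *Brca1*, *Exo1* and *Clspn*. Of the 24 genes with several probesets, the brightest was called higher in 20, and the second brightest too in 16 of these. *Nbn*, *Xrcc3*, *Fancc*, *Fancg*, *Atm* and *Atrip* did not pass. With the methods' t-test *Fancg* and *Atrip* passed too.

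**Figure D1:**
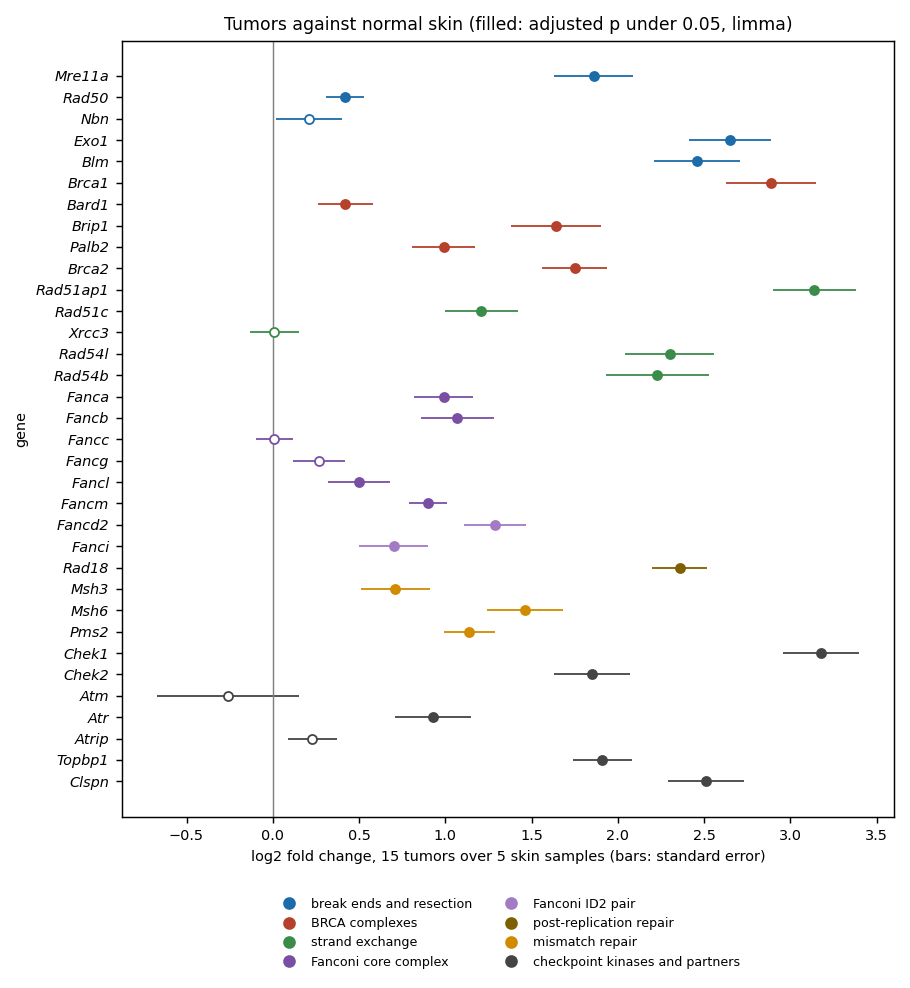
Difference between 15 tumors and 5 skin samples for each of the 34 genes (log2 fold change on the horizontal axis, bars for the standard error), with genes ordered and coloured by role and filled points for an adjusted p under 0.05. The 28 filled points run from 0.42 (*Rad50* and *Bard1*) to 3.18 (*Chek1*), and the 6 open points from -0.26 (*Atm*) to 0.27 (*Fancg*).

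**Figure D2:**
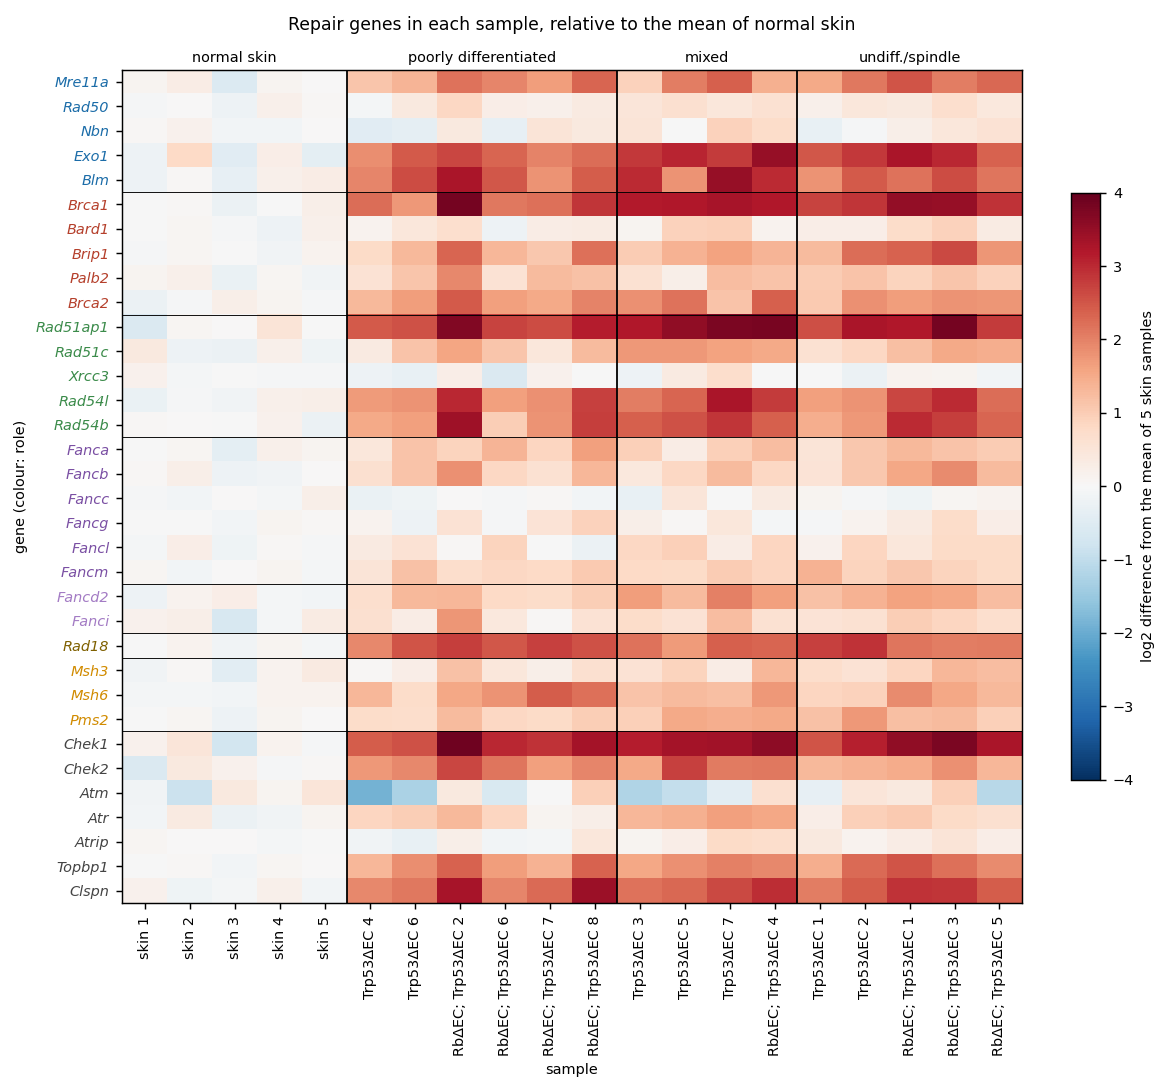
Each of the 34 genes (rows, grouped by role) in each of the 20 samples (columns, by histological class), as the log2 difference from the mean of the 5 skin samples, red for higher and blue for lower. *Brca1*, *Rad51ap1* and *Chek1* are red in all 15 tumors, to different depths, whereas *Xrcc3* and *Fancc* stay near white. *Atm* is red in some tumors and blue in others.

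Among the 5 genes that sense and cut back broken ends, 4 rose. *Exo1*, the exonuclease of long-range resection that also serves mismatch repair, stood at 4.5, 5.49, 4.23, 4.96 and 4.30 in the skin samples. In the tumors *Exo1* ran from 6.55 to 8.18 with a median of 7.36, so every tumor was above every skin sample. The change was 2.65 (SE 0.24, adjusted p = 3.22e-08), a 6.26-fold rise. *Blm*, the helicase that unwinds resected ends and dissolves joint molecules, rose by 2.46 (SE 0.25, adjusted p = 1.43e-07). By their brightest probesets, the 3 subunits of the MRN complex, which holds the ends together and starts resection, differed in the size of their change. *Mre11a*, its nuclease, rose by 1.86 (SE 0.23, adjusted p = 2.60e-06). A dimmer *Mre11a* probeset rose by only 0.51 (SE 0.14, adjusted p = 0.00601 over all probesets), so the size of its rise depends on the probeset. *Rad50*, the subunit that tethers the ends, rose by 0.42 (SE 0.11, adjusted p = 0.00683), with its lowest tumors, from 7.76 to 8.03, inside the skin range of 7.62 to 8.04. A second, much dimmer *Rad50* probeset (mean 3.91) differed by -0.16 (SE 0.10) and was not called. *Nbn*, which recruits ATM, differed by 0.21 (SE 0.19, adjusted p = 0.422), and its tumors spread from 7.85 to 9.21 around a skin range of 8.18 to 8.45.

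All 5 genes of the BRCA complexes rose. *Brca1*, the ubiquitin ligase subunit that favours resection and scaffolds the complexes, stood at 4.84, 4.90, 4.63, 4.85 and 5.11 in skin and ran from 6.61 to 8.70 in the tumors with a median of 7.77. The groups were far apart, and the change was 2.89 (SE 0.26, adjusted p = 4.11e-08), a 7.40-fold rise. *Brca2*, which prepares the resected strands for exchange, rose by 1.75 (SE 0.19, adjusted p = 4.01e-07). *Brip1*, the helicase bound to BRCA1, rose by 1.64 (SE 0.26, adjusted p = 4.16e-05), and *Palb2*, the bridge between BRCA1 and BRCA2, by 0.99 (SE 0.18, adjusted p = 0.000241). *Bard1*, the obligate partner of BRCA1 in the ligase, had the smallest change of the group at 0.42 (SE 0.16, adjusted p = 0.0438). Its single probeset was dim, between 3.97 and 4.38 in skin and between 4.0 and 5.14 in the tumors, and the call was lost when any of 10 of the 20 samples was left out.

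Of the 5 measured genes of strand exchange, 4 rose. *Rad51ap1*, which stimulates strand pairing, stood at 4.40, 5.05, 4.98, 5.50 and 4.95 in skin and between 7.43 and 8.79 in the tumors, with a median of 8.17. No tumor came near the skin samples, and the change was 3.14 (SE 0.24, adjusted p = 2.79e-09), 8.84-fold. *Rad54l* and *Rad54b*, motor proteins that help a strand invade the matching duplex, rose by 2.30 (SE 0.26, adjusted p = 6.69e-07) and 2.23 (SE 0.30, adjusted p = 7.65e-06). Dimmer probesets of *Rad54l* differed by 0.39, 0.33 and 0.64, of which 0.33 was not called. *Rad51c* and *Xrcc3* parted. *Rad51c* rose by 1.21 (SE 0.21, adjusted p = 0.00016), with tumors from 6.35 to 7.72 and skin from 5.76 to 6.39. *Xrcc3*, its partner in the CX3 complex, differed by 0.01 (SE 0.14, adjusted p = 0.957), and its tumors lay from 5.55 to 6.85 on both sides of the skin range of 6.04 to 6.30. A dimmer probeset of *Xrcc3* was called lower (-0.53, SE 0.20, adjusted p = 0.0459 over all probesets).

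The Fanconi core complex, which attaches ubiquitin to FANCD2 and FANCI at a crosslink, had 4 of 6 measured members called higher. *Fancb*, an X-linked core subunit, stood at 5.65, 5.82, 5.40, 5.46 and 5.61 in skin and from 6.02 to 7.49 in the tumors with a median of 6.66. The groups did not overlap, and the change was 1.07 (SE 0.21, adjusted p = 0.000384). *Fanca*, another core subunit, rose by 0.99 (SE 0.17, adjusted p = 0.000101). *Fancm*, the translocase that anchors the complex to DNA, rose by 0.90 (SE 0.11, adjusted p = 1.24e-06). *Fancl*, its ubiquitin ligase, rose by 0.50 (SE 0.18, adjusted p = 0.033), but lost the call when any of 4 of the skin samples was left out (adjusted p up to 0.0863). A second, much dimmer *Fancl* probeset (mean 3.60) differed by -0.06 (SE 0.08) and was not called. *Fancg* differed by 0.27 (SE 0.15, adjusted p = 0.176). *Fancc*, with tumors from 6.66 to 7.44 and skin from 6.84 to 7.19, differed by 0.01 (SE 0.11, adjusted p = 0.957), and its dimmer second probeset was called lower (-0.25, SE 0.09, adjusted p = 0.0318 over all probesets).

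Both members of the ID2 pair, the clamp that the core complex ubiquitinates, rose. *Fancd2* stood at 4.96, 5.30, 5.41, 5.07 and 5.04 in skin and from 5.84 to 7.18 in the tumors with a median of 6.45, again without overlap. Its change was 1.29 (SE 0.18, adjusted p = 8.71e-06). Dimmer probesets of *Fancd2* differed by 0.49, 0.30 and -0.23, the last of them not called. *Fanci* rose by 0.70 (SE 0.20, adjusted p = 0.0101), with 1 tumor at 6.41 and 1 at 6.67 inside the skin range of 5.74 to 6.71. Without skin sample 3, the lowest of them, the change of *Fanci* was 0.54 (adjusted p = 0.054). A second, dimmer *Fanci* probeset (mean 4.01) differed by -0.11 (SE 0.21) and was not called.

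*Rad18*, the ubiquitin ligase that marks PCNA at stalled forks and also helps recombination, had the smallest p-value of the 34 genes. It stood at 5.31, 5.44, 5.16, 5.41 and 5.24 in skin and between 7.03 and 8.19 in the tumors, with a median of 7.69. That is a rise of 2.36 (SE 0.16, adjusted p = 4.37e-10), 5.14-fold, with tumors well clear of skin. All 4 *Rad18* probesets were called higher, by 1.87 to 2.57.

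All 3 mismatch repair genes rose. *Msh6*, a subunit of the MutSα mismatch sensor, stood at 7.74, 7.73, 7.70, 7.95 and 7.94 in skin and from 8.55 to 10.23 in the tumors with a median of 9.14, and no sample overlapped. The change was 1.46 (SE 0.22, adjusted p = 2.37e-05). *Pms2*, the nuclease subunit of MutLα, rose by 1.14 (SE 0.15, adjusted p = 5.23e-06). Dimmer probesets of *Pms2* rose by 0.25 and 0.57. *Msh3*, which takes the place of MSH6 in the sensor of longer loops, rose by 0.71 (SE 0.20, adjusted p = 0.00884), with tumors from 6.66 to 7.95 and skin from 6.20 to 6.97.

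Of the 7 checkpoint genes 5 rose. *Chek1*, the kinase that slows replication and mitotic entry when forks stall, stood at 4.95, 5.25, 4.02, 4.89 and 4.71 in skin and from 7.19 to 8.66 in the tumors with a median of 8.04. Its rise of 3.18 (SE 0.22, adjusted p = 9.02e-10) was the largest of the 34 genes, 9.08-fold, and the lowest tumor was far above the highest skin sample. The adaptor of CHK1, *Clspn*, rose by 2.51 (SE 0.22, adjusted p = 1.82e-08), although its dimmer second probeset differed by only 0.04 (SE 0.15). *Topbp1*, the activator of ATR, rose by 1.91 (SE 0.17, adjusted p = 2.95e-08), and *Chek2*, the kinase downstream of ATM, by 1.85 (SE 0.22, adjusted p = 1.22e-06). The upstream kinase *Atr* rose by 0.93 (SE 0.22, adjusted p = 0.00243), whereas its partner *Atrip* differed by 0.23 (SE 0.14, adjusted p = 0.214). *Atm* differed by -0.26 (SE 0.41, adjusted p = 0.653). Its tumors ran from 6.14 to 8.99 and its skin samples from 7.19 to 8.51. Its second probeset, of nearly the same brightness, was called higher (0.63, SE 0.18, adjusted p = 0.0109 over all probesets), so the direction of *Atm* depends on the probeset.

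**Figure D3:**
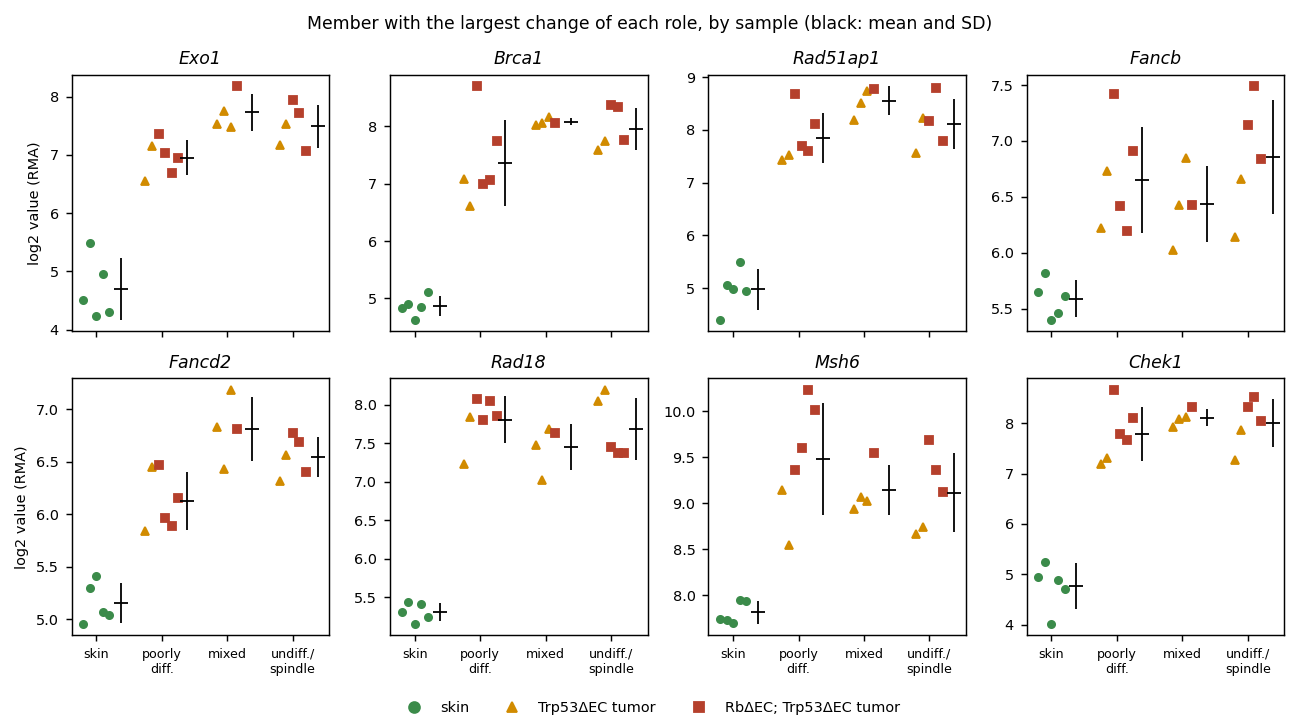
Log2 values in each sample (vertical axis) for the gene with the largest change of each role, by histological class (horizontal axis) and genotype (symbols), with the mean and SD of each class in black. In all 8 panels the 15 tumors lie above the 5 skin samples, from a gap between 5.82 and 6.02 for *Fancb* to one between 5.25 and 7.19 for *Chek1*.

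Partners of 1 complex or step were then set side by side within each sample, for 12 pairs chosen after their values were seen, as a description. The excess of *Brca1* over *Bard1*, taken from the skin mean of the same difference, was 2.47 ± 0.48 (SD, n = 15) in the tumors, from 1.30 to 3.17, and from -0.20 to 0.20 in the 5 skin samples. For *Mre11a* over *Nbn* it was 1.65 ± 0.54 and over *Rad50* 1.44 ± 0.46. *Chek1* over *Atr* gave 2.25 ± 0.50 and *Fanca* over *Fancg* 0.73 ± 0.40. In each of these 5 pairs all 15 tumors lay above all skin samples. The first-named gene of each pair also separated them alone. How many other gene pairs do the same was not computed, so this says nothing particular about partners. In the other 7 pairs tumors and skin overlapped, among them *Fancd2* over *Fanci* (0.59 ± 0.38, from -0.45 to 1.05) and *Msh6* over *Msh3* (0.75 ± 0.61, from 0.09 to 2.18). These differences set the change of one probeset against that of another, and probesets can differ in how far they compress a change. The dimmer *Mre11a* probeset, for one, rose by 0.51 where the one used rose by 1.86.

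The promoters of these genes are shown because most of the genes rose against skin, for the 3 with the largest rise and for the 2 with the smallest change. A pair with the E2F motif was added after the matches were seen. RefSeq promoters (GRCm38.p6) were found for 29 of the 34 genes. In each window of 250 bases before and 50 after the start, 3 motifs of cell-cycle genes were searched on both strands: TTTNNCGC with G or C at each N for E2F, CCAAT for NF-Y, and TTTGAA for the cell cycle homology region. The letters below are the 250 bases before the start, 5′ to 3′ on the strand of the gene, with motif matches in capitals.
Chek1 (chr9:36726659-36726908, minus strand): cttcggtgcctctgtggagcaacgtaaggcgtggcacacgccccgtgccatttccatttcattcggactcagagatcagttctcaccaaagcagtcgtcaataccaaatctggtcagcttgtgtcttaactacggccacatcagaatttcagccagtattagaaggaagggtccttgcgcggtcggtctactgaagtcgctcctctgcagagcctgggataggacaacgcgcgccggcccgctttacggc
Rad51ap1 (chr6:126939588-126939837, minus strand): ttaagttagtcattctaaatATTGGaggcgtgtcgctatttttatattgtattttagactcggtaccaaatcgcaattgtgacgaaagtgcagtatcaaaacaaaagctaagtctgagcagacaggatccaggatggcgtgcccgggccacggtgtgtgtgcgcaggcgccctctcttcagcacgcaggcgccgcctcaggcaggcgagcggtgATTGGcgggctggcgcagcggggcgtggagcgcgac
Brca1 (chr11:101551956-101552205, minus strand): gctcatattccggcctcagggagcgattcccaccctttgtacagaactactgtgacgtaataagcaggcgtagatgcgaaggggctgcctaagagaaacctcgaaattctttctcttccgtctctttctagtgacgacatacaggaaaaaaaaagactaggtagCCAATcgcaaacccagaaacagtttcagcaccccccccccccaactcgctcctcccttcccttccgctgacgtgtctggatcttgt
Xrcc3 (chr12:111813880-111814129, minus strand): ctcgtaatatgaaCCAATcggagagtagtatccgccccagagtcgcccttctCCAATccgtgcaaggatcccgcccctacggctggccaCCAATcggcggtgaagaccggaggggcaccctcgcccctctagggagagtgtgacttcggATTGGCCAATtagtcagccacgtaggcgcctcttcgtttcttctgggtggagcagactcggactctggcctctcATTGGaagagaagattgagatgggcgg
Fancc (chr13:63431746-63431995, minus strand): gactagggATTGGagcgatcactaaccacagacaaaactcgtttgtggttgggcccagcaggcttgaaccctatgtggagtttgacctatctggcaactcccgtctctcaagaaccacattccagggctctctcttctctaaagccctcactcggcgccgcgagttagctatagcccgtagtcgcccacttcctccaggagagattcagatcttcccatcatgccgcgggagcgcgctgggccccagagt
Topbp1 (chr9:103305077-103305326, plus strand): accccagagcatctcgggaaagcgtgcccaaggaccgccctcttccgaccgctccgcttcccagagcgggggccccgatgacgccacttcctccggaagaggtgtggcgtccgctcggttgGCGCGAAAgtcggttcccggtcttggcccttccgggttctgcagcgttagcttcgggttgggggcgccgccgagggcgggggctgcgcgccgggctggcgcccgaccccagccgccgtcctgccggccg
Msh3 (chr13:92355004-92355253, minus strand): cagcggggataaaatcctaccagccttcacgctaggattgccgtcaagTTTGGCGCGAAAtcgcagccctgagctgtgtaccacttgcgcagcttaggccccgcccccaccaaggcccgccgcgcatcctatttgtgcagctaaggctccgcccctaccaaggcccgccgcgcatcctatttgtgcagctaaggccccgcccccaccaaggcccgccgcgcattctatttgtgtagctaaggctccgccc

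A gene was counted if any of its promoters held the motif. The E2F motif stood in 9 of the 29 genes (31.0%), against 3.8% of 14368 genes on the array with a promoter. The 9 were *Bard1*, *Brca2*, *Rad51c*, *Fancg*, *Msh3*, *Msh6*, *Chek2*, *Topbp1* and *Clspn*. In *Msh3* the E2F motif reads on both strands, the matches overlapping within TTTGGCGCGAAA. CCAAT stood in 18 of 29 (62.1%) against 42.0%, and TTTGAA in 1 of 29 (3.45%, *Bard1*) against 15.7%. The strongest risers and the flat genes were not separated by these letters. The window of *Chek1* held none of the 3 motifs, *Rad51ap1* and *Brca1* held CCAAT only, and the flat *Xrcc3* held 6 CCAAT matches before its start. The median change was 1.46 for the 9 genes with the E2F motif and 1.03 for the 20 without, with ranges of 0.27 to 2.51 and -0.26 to 3.18. These are matches of letters and not measured binding.

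Other repair genes, listed by pathway, rose in part, where 17.7% of all genes were called higher and 18% lower. Of 23 measured other genes of homologous recombination 11 rose and none fell, with a median change of 0.49. The largest were *Dna2*, a nuclease of resection (1.60, SE 0.48), and *Rpa2*, a subunit of the protein that coats single strands (1.40, SE 0.23). Of 8 other Fanconi genes 5 rose, led by *Ube2t*, the conjugating enzyme that serves FANCL (2.02, SE 0.25), and *Fancf*, a core subunit (1.25, SE 0.21). Of 12 other mismatch repair genes 9 rose, led by the clamp loader subunits *Rfc3* (2.41, SE 0.19) and *Rfc4* (2.39, SE 0.24), and of 11 other checkpoint genes 8 rose, led by *Tipin* (1.98, SE 0.24) and *Timeless* (1.41, SE 0.27), which form the fork protection complex.

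In the pathways outside recombination and mismatch repair the medians lay between 0.27 and 0.48. Over all genes the median was 0.02, with 17.7% called higher and 18% lower. In end joining 5 of 10 measured genes rose (median 0.44), among them *Lig4*, its ligase (1.38, SE 0.43), and *Xrcc5*, a Ku subunit (1.16, SE 0.22). In base excision repair 10 of 16 rose, led by the uracil glycosylase *Ung* (1.68, SE 0.32) and the mismatch glycosylase *Mbd4* (1.21, SE 0.24), and 1 fell, the gap-filling polymerase *Polb* (-1.09, SE 0.32). In nucleotide excision repair 6 of 15 rose (median 0.48), with *Rad23b*, a partner of the damage sensor XPC, and *Ercc8*, of transcription-coupled repair, both at 0.73 (SE 0.18 and 0.09). In translesion synthesis 1 of 7 rose, no more than the share over all genes. It was *Mad2l2* (0.69, SE 0.19), a subunit of polymerase zeta. The difference between pathways was not tested.

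Tissue makeup and proliferation moved with this comparison. All 13 measured proliferation markers rose (median 2.57), and their mean log2 value ran from 6.92 to 7.39 in skin and from 8.89 to 10.14 in the tumors. All 12 skeletal muscle markers fell (median -7.67), with means of 13.13 to 13.78 in skin and 4.89 to 8.76 in the tumors, and all 6 measured adipocyte markers fell, with means of 10.47 to 10.89 in skin and 5.34 to 7.42 in the tumors. In bulk tissue, fewer cells of a type and less RNA per cell cannot be told apart, and the part of either in the repair genes' rise was not tested. The 3′ probeset of *Gapdh* exceeded its 5′ probeset by 0.39 ± 0.29 in skin (SD, n = 5) and by 0.07 ± 0.14 in the tumors (n = 15), on the log2 scale, as a sign of RNA integrity. For *Actb* the same differences were 0.72 ± 0.28 and 0.47 ± 0.18. Their part in the rise was not tested.

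Taken by histological class, each against the same 5 skin samples, 23 of the 34 genes rose in poorly differentiated tumors (19.2% of all genes), 28 in undifferentiated and spindle tumors (22%) and 29 in mixed tumors (21.9%), and none fell in any class, where 19.6%, 20.2% and 21.5% of all genes fell, nor was any lower by limma at an unadjusted p under 0.05. The median changes were 1.06, 1.26 and 1.35. *Rad50*, *Bard1*, *Fancl*, *Fanci* and *Msh3* passed in undifferentiated and spindle and in mixed tumors but not in poorly differentiated ones, where their changes were 0.33, 0.28, 0.26, 0.62 and 0.47, all above 0. *Nbn*, *Xrcc3*, *Fancc*, *Fancg* and *Atm* passed in none of the classes. *Atrip* passed in mixed tumors alone, with 0.46 there, 0.32 in undifferentiated and spindle tumors and 0.01 in poorly differentiated ones. Passing in one class and not in another does not show a difference, and the classes were compared directly only for undifferentiated and spindle against poorly differentiated tumors.

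**Figure D4:**
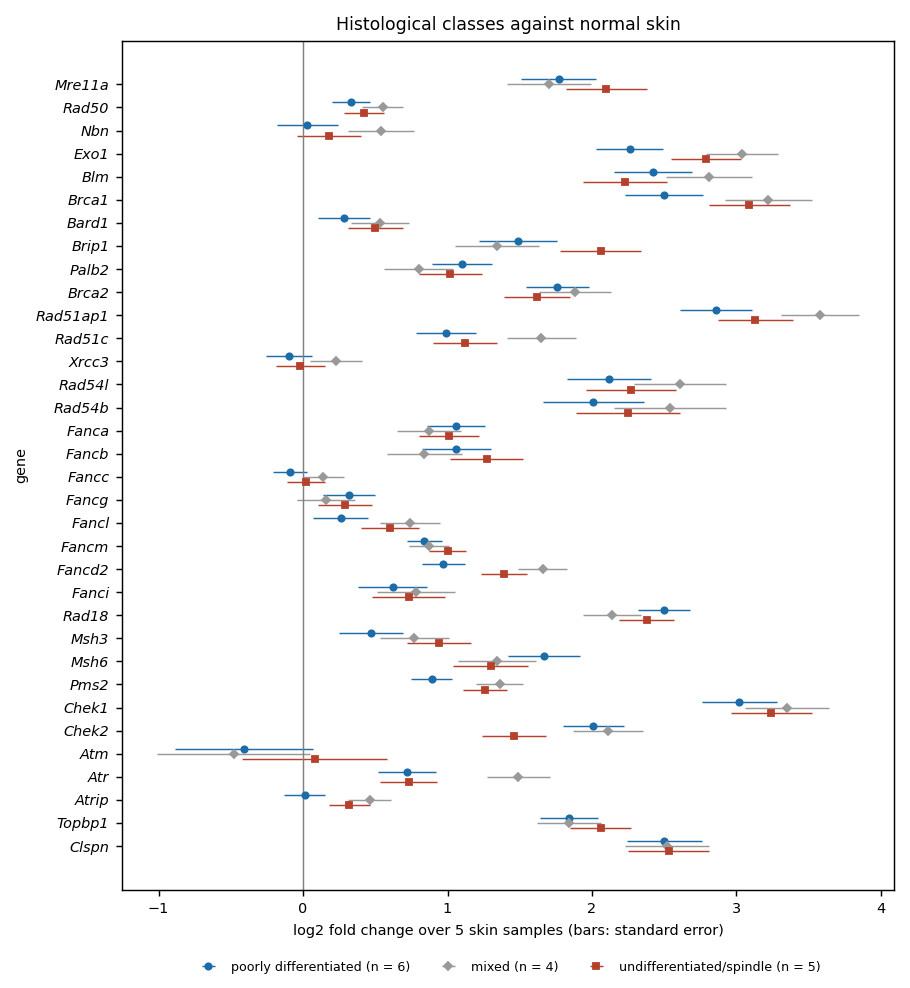
Log2 fold change of each of the 34 genes against the 5 skin samples (horizontal axis, bars for the standard error) in 6 poorly differentiated, 4 mixed and 5 undifferentiated or spindle tumors. The classes lie close together for most genes, and *Chek2* is lowest in undifferentiated and spindle tumors.

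Between undifferentiated or spindle tumors and poorly differentiated tumors, the comparison of grade, few repair genes passed the test. None of the 34 genes was called higher and 1 was called lower, against 12.7% and 9.9% of all genes. At an unadjusted p under 0.05, 5 were higher and 1 lower, against 19.2% and 14.8%. The median difference was 0.16, and it moved with single tumors: it was 0.27 without Trp53ΔEC tumor 1, 0.29 without RbΔEC; Trp53ΔEC tumor 2, 0.10 without Trp53ΔEC tumor 4 and 0.09 without RbΔEC; Trp53ΔEC tumor 3. With mixed tumors counted as poorly differentiated it was 0.03. *Chek2*, the gene called, stood at 7.05, 7.17, 7.25, 7.59 and 7.08 in undifferentiated and spindle tumors and ran from 7.40 to 8.44 in poorly differentiated ones, with a median of 7.71. The groups overlapped by 1 undifferentiated or spindle tumor, and the difference was -0.55 (SE 0.18, adjusted p = 0.0497). Leaving out any of 8 of the 11 tumors lost the call, with adjusted p from 0.0338 to 0.108 over the 11 fits. The next smallest p-values belonged to *Fancd2* (0.42, SE 0.15, adjusted p = 0.0631), *Exo1* (0.53, SE 0.19, adjusted p = 0.0692), *Pms2* (0.37, SE 0.15, adjusted p = 0.104), *Msh3* (0.48, SE 0.21, adjusted p = 0.131) and *Atrip* (0.31, SE 0.14, adjusted p = 0.144), all toward undifferentiated and spindle tumors.

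Second probesets of *Exo1* and *Msh3*, dimmer than those used, were called higher in undifferentiated and spindle tumors (0.75, SE 0.22, adjusted p = 0.0374, and 0.49, SE 0.14, adjusted p = 0.0378, over all probesets). With the same adjustment over all probesets the call of *Chek2* was lost (adjusted p = 0.0574). Proliferation markers differed little between these classes, with means of 9.59 ± 0.46 (SD, n = 5) and 9.43 ± 0.45 (n = 6), and 1 of 13 was called higher. Cell makeup differed more: all 9 keratinocyte markers fell, 4 of 7 macrophage markers and 4 of 7 endothelial markers rose, and the part of this in the repair genes' values was not tested. The signs of RNA integrity moved with grade as well. The 3′ probeset of *Actb* exceeded its 5′ probeset by 0.42 to 0.82 (mean 0.60, n = 6) in poorly differentiated tumors and by 0.24 to 0.38 (mean 0.31, n = 5) in undifferentiated and spindle tumors, without overlap. For *Gapdh* the means were 0.16 and -0.04, with ranges that overlapped. Their part in the grade differences was not tested. Within the other repair lists, *Parp1*, the sensor of strand breaks, rose by 1.24 (adjusted p = 0.000204), *Polk*, a translesion polymerase, by 1.06 (adjusted p = 0.00134) and *Xrcc6*, a Ku subunit, by 1.06 (adjusted p = 0.00298). *Polb* fell by 1.16 (adjusted p = 0.00393) and *Ddb2*, a sensor of ultraviolet damage, by 1.14 (adjusted p = 0.00137). These 5 were chosen as the largest changes of the lists after their values were seen.

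The grade difference was then compared between genotypes through an interaction term over the 11 tumors. None of the 34 genes passed after adjustment, nor did any of the 18193 genes, and 1 of the 34 had an unadjusted p under 0.05 against 3.22% of all genes with a higher and 3.84% with a lower term. That gene was *Rad18*. In Trp53ΔEC tumors it stood at 8.05 and 8.19 in the undifferentiated and spindle samples and at 7.23 and 7.84 in the poorly differentiated ones. In RbΔEC; Trp53ΔEC tumors the order was turned, with 7.45, 7.37 and 7.38 against 8.07, 7.80, 8.05 and 7.86. The interaction was -1.13 (SE 0.26, limma adjusted p = 0.478), and it rests on 2 Trp53ΔEC tumors of each class.

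The last comparison asks whether loss of *Rb1* on top of *Trp53* changed the repair genes. None of the 34 genes was called in either direction by limma between 8 RbΔEC; Trp53ΔEC and 7 Trp53ΔEC tumors, where 0.011% of all genes were called higher and 0.022% lower. At an unadjusted p under 0.05, 6 were higher and none lower (17.6% of the 34), against 2.65% of all genes higher and 2.64% lower. The difference was above 0 in 27 of the 34 genes, against 48.8% of all genes, with a median of 0.22 against -0.01. That median fell to 0.11 without Trp53ΔEC tumor 6, 0.13 without Trp53ΔEC tumor 4 and 0.13 without RbΔEC; Trp53ΔEC tumor 2, and was 0.29 at most with 1 tumor left out. With the median of a gene's probesets it was 0.12. The methods' t-test called none either. The 34 genes cannot be taken as independent of each other, so the count of 27 above 0 is a description. How far they vary together, and whether cell division accounts for it, was not tested.

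*Msh6* had the smallest p-value. It ran from 8.55 to 9.14 in Trp53ΔEC tumors with a median of 8.94 and from 9.12 to 10.23 in RbΔEC; Trp53ΔEC tumors with a median of 9.58, so the groups overlapped only where the lowest of one met the highest of the other. The difference was 0.74 (SE 0.16, limma adjusted p = 0.235). *Atm* ran from 6.14 to 8.53 with a median of 7.09 in Trp53ΔEC tumors and from 6.91 to 8.99 with a median of 8.43 in the other genotype, a broad overlap. Its difference was 0.99 (SE 0.37, adjusted p = 0.848), and the second *Atm* probeset gave 0.11 (SE 0.21). *Chek1* ran from 7.19 to 8.12 with a median of 7.86 and from 7.66 to 8.66 with a median of 8.21, a difference of 0.50 (SE 0.19, adjusted p = 0.855). *Clspn* ran from 7.41 to 8.13 with a median of 7.64 and from 7.44 to 8.91 with a median of 8.35, a difference of 0.53 (SE 0.21, adjusted p = 0.863). The other genes with an unadjusted p under 0.05 were *Fanca* (0.40, SE 0.15) and *Msh3* (0.43, SE 0.19).

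The same difference was taken within histological classes, as a description. Among poorly differentiated tumors (4 against 2) the difference was above 0 in 30 of 34 genes with a median of 0.365, and among undifferentiated and spindle tumors (3 against 2) in 28 of 34 with a median of 0.325. For all genes the shares were 47.8% and 50.3%, and the medians -0.014 and 0.003. In 24 of the 34 genes the difference was above 0 in both classes. The share of all genes with this was not computed, so that count does not show agreement between the classes. *Msh6* differed by 0.95 and 0.69 in these classes, *Chek1* by 0.80 and 0.73, and *Atm* by 1.75 and -0.01. The mean of the proliferation markers lay between 8.89 and 9.81 in Trp53ΔEC tumors and between 9.12 and 10.14 in RbΔEC; Trp53ΔEC tumors, with 12 of 13 differences above 0 and none called. The mean of the skeletal muscle markers was 6.81 ± 1.60 (SD, n = 7) and 5.20 ± 0.42 (n = 8), with 9 of 12 lower at an unadjusted p under 0.05. The part of either in the repair genes' difference was not tested.

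**Figure D5:**
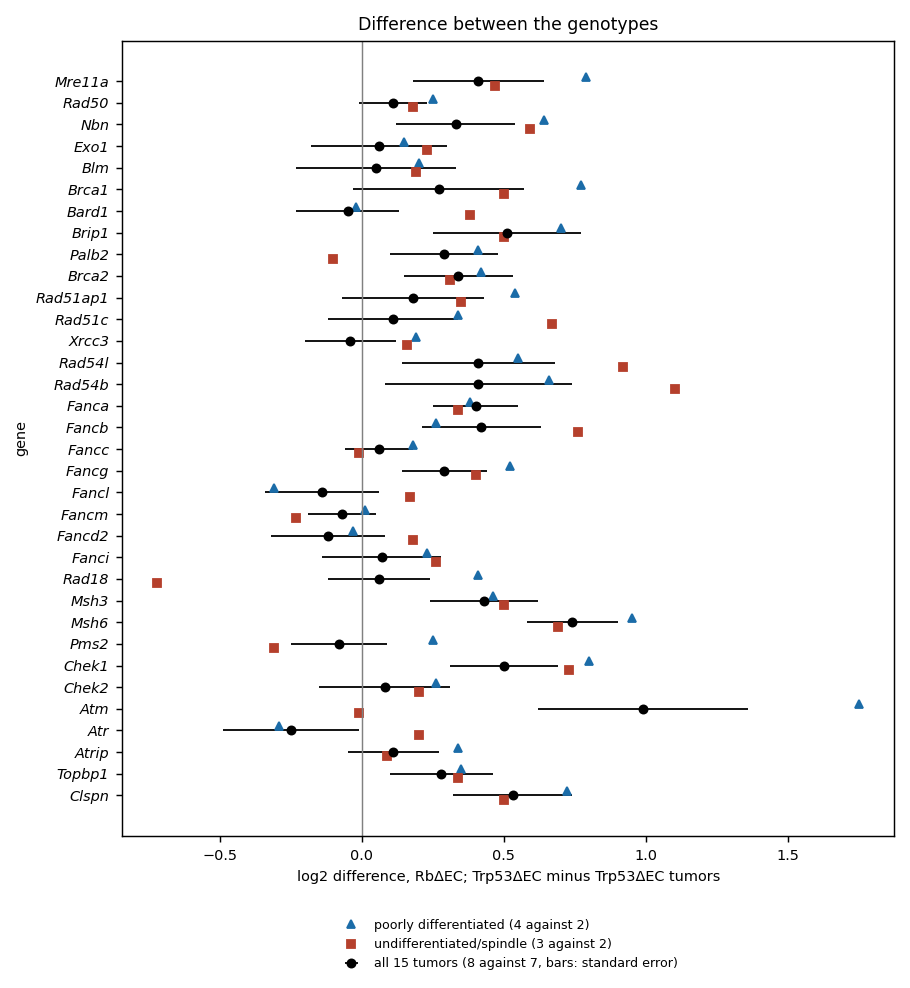
Difference between RbΔEC; Trp53ΔEC and Trp53ΔEC tumors for each of the 34 genes (log2 scale, horizontal axis), over all 15 tumors with the standard error (black) and within poorly differentiated (blue) and undifferentiated or spindle tumors (red). Most points lie to the right of 0, none passed the adjusted test, and the classes disagree most for *Atm* (1.75 and -0.01) and *Rad18* (0.41 and -0.72).

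Against skin, with the same 5 samples on the other side of both comparisons, 26 of the 34 genes rose in Trp53ΔEC tumors (15.6% of all genes) and 27 in RbΔEC; Trp53ΔEC tumors (15.7%), and none fell, against 15.2% and 15.9% of all genes. The values of *Chek1* were 2.92 and 3.42 in that order, those of *Brca1* 2.75 and 3.01, those of *Rad51ap1* 3.05 and 3.23, and those of *Rad18* 2.33 and 2.39.

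Among the tumors the 34 genes varied about as much as other genes. The median SD over 15 tumors was 0.42, against 0.40 for all genes, and over the 5 skin samples 0.17 against 0.19. *Atm* had the largest SD over the tumors of the 34 genes, at 0.89.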

How the data were processed

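The deposited log2 values were used. The authors had made them by RMA, per the labels, a procedure that corrects background, normalizes between arrays and summarizes probes into probesets. Its version was not given in the sources read. RMA puts all arrays on a common distribution, which can hide a change shared by most genes, and it compresses the changes of dim probesets. The values ran from 2.337 to 14.718. Arrays carry no read depth, so their number limits the precision.

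Of 45101 probesets, 64 array controls were left out. Of the others, 34945 carried a single gene symbol in GEO's platform annotation, 932 carried several and 9160 carried none. Each gene was represented by its brightest probeset. Members, pathway lists, marker lists, tests and the rule for naming genes were chosen with earlier results of these data known. That rule gives sample values for the member with the largest change against skin in each role, for members called between grades and, since none was called between genotypes, for the 4 with the smallest p there. From each other repair list it takes the 2 called genes with the largest change.

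Linear models were fitted in R 4.3.3 with limma 3.58.1 (lmFit, then eBayes). The tests were two-sided, p-values were adjusted by Benjamini-Hochberg across 18193 genes, and a call needed an adjusted p under 0.05. Tests of all 45037 probesets were adjusted over those. Classes were compared with skin in 1 fit over 20 arrays, grades without the mixed tumors. Marker lists were summarized by the mean of their log2 values. The code was tested on simulated data. Other steps used Python 3.11.15 with pandas 2.3.3, numpy 2.4.6 and matplotlib 3.10.9. Promoters came from RefSeq (GRCm38.p6). Alternatives were the median of a gene's probesets, centring, quantile normalization, leaving out dim genes, trend and robust fits and arrayWeights. Others were a t-test with unequal variances, covariates, a replicate block, counting mixed tumors with either grade and leaving out each sample.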

Additional observations from a re-analysis of the deposited data

Results flagged for a closer look

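In 8 of 204 groups of samples (3.92%) the highest or lowest sample stood apart from the others by the gap-to-range criterion, which chance meets in about 1 group in 20. In RbΔEC; Trp53ΔEC tumors, *Nbn* was lowest in tumor 6 at 7.97 (next 8.52), *Xrcc3* in the same tumor at 5.55 (next 6.01) and *Rad51c* in tumor 7 at 6.43 (next 7.10). In Trp53ΔEC tumors, *Rad54l* was highest in tumor 7 at 8.77 (next 7.82). Among undifferentiated and spindle tumors, *Brca2* was lowest in Trp53ΔEC tumor 1 at 7.29 (next 7.93). Among poorly differentiated tumors, *Fanci* was highest in RbΔEC; Trp53ΔEC tumor 2 at 8.14 (next 7.02) and *Rad18* lowest in Trp53ΔEC tumor 4 at 7.23 (next 7.80). Among mixed tumors, *Pms2* was lowest in Trp53ΔEC tumor 3 at 7.76 (next 8.24).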

How the results depend on the processing

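Against skin, 29 alternatives were run, 1 of which tested 19 of the 34 genes. Of the 28 calls, 24 held under each alternative that tested them, and *Rad50*, *Bard1*, *Fancl* and *Fanci* were lost under some. With the median of a gene's probesets 1 gene was lower (*Fancc*, -0.24, adjusted p = 0.0455), and the median change was 0.87 for all tumors, 0.81 for poorly differentiated, 0.88 for undifferentiated and spindle and 0.94 for mixed tumors. Without dim genes 19 of the 34 were tested. Of these 17 rose in all tumors, 14 in poorly differentiated, 17 in undifferentiated and spindle and 17 in mixed tumors. Their medians were 1.85, 1.77, 1.62 and 1.84. Over all genes kept, 26%, 26.6%, 31.9% and 29.2% rose in the same order. Dim genes were those with a mean over all 20 arrays, 15 of them tumors, below the median gene. A gene high in tumors passes such a filter more readily, so these counts and medians are no separate evidence. Calls were gained for *Fancg* (0.27, adjusted p = 0.024) and *Atrip* (0.23, adjusted p = 0.0309) with the t-test with unequal variances, and for *Fancg* (0.28, adjusted p = 0.0365) with arrayWeights. Uncalled genes changed sign: *Xrcc3* to -0.26 (median of probesets), -0.08 (centred arrays), -0.11 (quantile normalization) and 0 (arrayWeights), *Fancc* to -0.24, -0.09, -0.13 and -0.03 under the same settings, and *Atm* to 0.18 with the median of probesets. With each sample left out *Xrcc3* ran from -0.04 to 0.06 and *Fancc* from -0.02 to 0.07.

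Between grades the calls depended on the setting. With the median of probesets, centred arrays, arrayWeights or genotype as a covariate 1 of the 34 genes was higher. Of all genes, 12.5% to 13.8% were higher under these settings. With mixed tumors counted as undifferentiated or spindle 3 of the 34 were higher, against 8.09% of all genes. The lower call (*Chek2*) went to 0 with centred arrays, trend and robust fits and the t-test with unequal variances. It also did with genotype as a covariate and mixed tumors counted with either grade. With each sample left out, 0 to 5 genes were higher (5 without RbΔEC; Trp53ΔEC tumor 2) and 0 to 1 lower. The main fit called 12.7% of all genes higher and 9.9% lower, and the shares in these refits are not given here. *Fancd2* became -0.01 with the median of probesets. The cause was not tested. Between genotypes no alternative gave a call.

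Replicate numbers were not taken to pair the samples. Correlations of same-numbered deviations from the group means lay between -0.12 and 0.10 for skin with tumors. For the genotypes they lay between -0.48 and 0.64, with 2 of 7 over 0.1. Those 2 (0.63 for number 1 and 0.64 for number 6) were the only same-numbered tumors of the same histology. The check therefore cannot tell numbering from histology. With a replicate block 27 genes rose against skin (median 1.24, *Bard1* lost with an adjusted p of 0.0609) and none was called between genotypes (median 0.20).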
